A study of Mus musculus with 6 samples.

Results

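The genes of endothelin, nitric oxide and cyclic GMP signalling were followed in sham and tail-suspended mouse hearts. They were 10 genes: Edn1, Ednra, Ednrb, Ece1, Nos1, Nos2, Nos3, Gucy1a3, Gucy1b3 and Prkg1. They were chosen by name from the array's gene column, with control spots left out. This gave 12 probes of 55681 on the array and 10 of the 28909 named genes. Of these, 9 genes with 11 probes were bright enough to test, among 17140 tested genes with 28032 probes.

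The samples were total RNA of cardiac muscle from male C57BL/6 mice, 3 sham and 3 after tail-suspension, in which the animal hangs by its tail with the hind limbs unloaded. By the treatment label, suspension began at 10 weeks of age and lasted 28 days, although the age label of every sample reads 11 weeks. The paper states the age in whole months, and the age at collection is unclear. The sham mice were housed alongside in like conditions without suspension. Neither group carried an allele or was given a drug according to the labels, and tail-suspension on the ground is a model of weightlessness, not weightlessness itself.

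Endothelin-1 is made mainly by endothelial cells as a precursor that a membrane protease cuts to the active peptide. In the vessel wall it narrows arteries through the ETA receptor on smooth muscle, while the ETB receptor on endothelium prompts nitric oxide release and clears the peptide. Nitric oxide, made from arginine by the nitric oxide synthases, activates soluble guanylate cyclase, and the cyclic GMP formed acts through cGMP-dependent protein kinase to relax smooth muscle and to dampen contraction and growth signals in heart muscle cells.

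Each value came from the 60 bases of a probe, so the first 30 bases are shown for the members whose results or paired probes are discussed most. Sequences are those of the array design and run from 5′ to 3′, with positions on mm9.
Ednra (chr8:80186985-80187044, minus strand): ggccctggtaactctactgggcattttccc
Nos2 (chr11:78773567-78773626, plus strand): caccatgccgccgctctaatacttagctgc
Edn1 (chr13:42403101-42403160, plus strand): cagtaaaaatatgttcccgtatgtattgta
Ednrb, brighter probe (chr14:104214484-104214543, minus strand): aaggacgccccagatcttcaattttaagtt
Ednrb, dimmer probe (chr14:104220870-104220929, minus strand): tataccctgatgacctgcgaaatgctcagg
Nos3, brighter probe (chr5:23890038-23890097, plus strand): tgtagactccctttaactctctctctggag
Nos3, dimmer probe (chr5:23889636-23889695, plus strand): gatcagcaacgctaccacgaggacattttc
The paired Ednrb probes began 6386 bases apart on the genome and the paired Nos3 probes 402 bases apart, so each pair read separate stretches of its gene. Whether a probe lies in coding or untranslated sequence was not analysed here.

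Levels are given as processed intensity, the brightness of a spot after background subtraction, and as log2 of that intensity relative to the 75th percentile of its array. That percentile was 301.6 to 322.1 on the sham arrays and 340.8 to 376.3 on the tail-suspension arrays, so equal intensities stood for a lower relative level after suspension. A probe's brightness depends on its sequence, so no level was compared between probes. All 6 arrays lay on 1 slide and were scanned together. The 3 sham arrays and tail-suspension 1 shared a row of the slide, and tail-suspension 2 and 3 lay in the other row. From 50.9% to 53.4% of probes were well above background and no spot was saturated. The number of arrays, 3 per group, limited the precision. Adjusted p-values are from limma with Benjamini-Hochberg adjustment over all 28032 probes, and errors are SD (n = 3) for levels and SE for differences.

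Of the 9 tested members, 2 passed an adjusted p of 0.05: Ednra, the ETA receptor, was higher and Nos2, the inducible nitric oxide synthase, was lower in tail-suspended hearts. Over all tested genes, 10.6% were higher and 10.5% lower at that threshold, or 21.2% in either direction, so 2 of 9 (22.2%) was near the background. The groups did not overlap for 5 of the 9 members, 3 higher and 2 lower, against 46.5% of all tested genes, 22.3% higher and 24.2% lower. The median difference was 0.01 on the log2 scale for the members and -0.01 for all tested genes. The ligand, the converting enzyme, the ETB receptor, the endothelial synthase, both cyclase subunits and the kinase did not pass. In whole tissue, fewer cells of a type and less RNA per cell cannot be told apart.

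**Figure D1:**
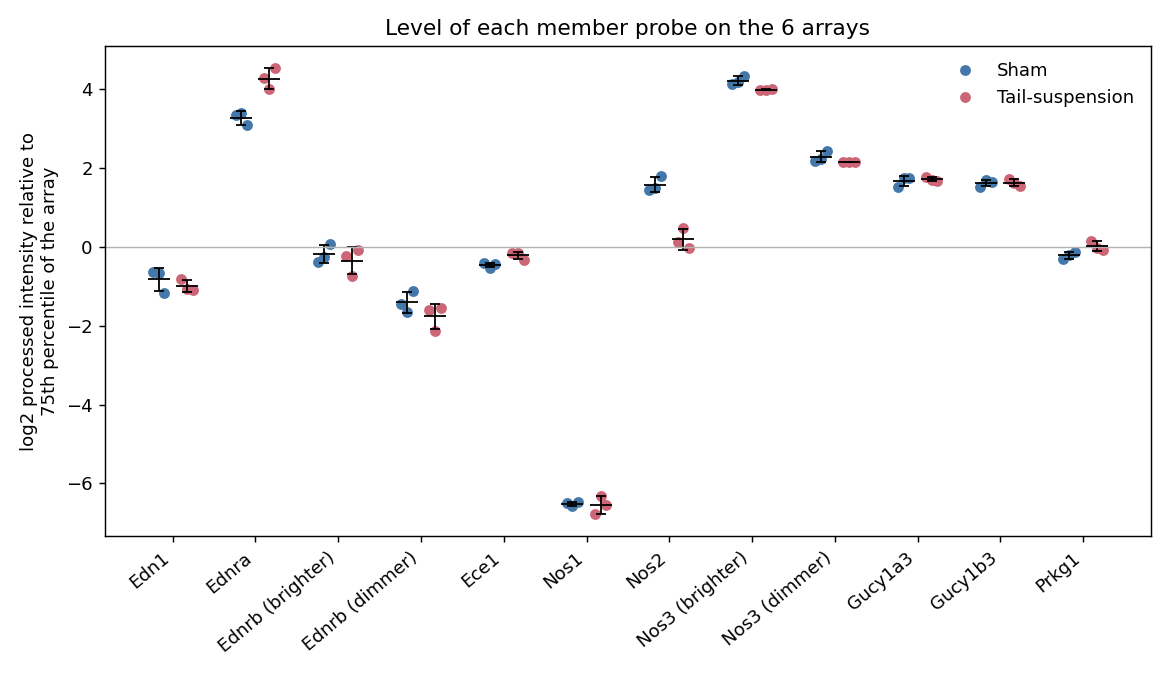
Levels of the 12 member probes as log2 processed intensity relative to the 75th percentile of the array, with 1 point per array (3 sham in blue, 3 tail-suspension in red) and black bars for mean ± SD. Ednra lies higher and Nos2 lower in all 3 tail-suspension arrays, Nos1 lies near -6.5 on every array where no signal was well above background, and heights of different probes are not comparable.

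Edn1 encodes the endothelin-1 precursor. Its processed intensity was 207.0, 203.2 and 135.1 in sham 1, 2 and 3, and 193.7, 180.6 and 176.1 in tail-suspension 1, 2 and 3. The groups overlapped because sham 3 lay below every other array. The log2 level was -0.82 ± 0.30 in sham and -0.99 ± 0.15 in tail-suspended hearts, a difference of -0.17 (SE 0.17, 95% interval -0.57 to 0.23, adjusted p = 0.4835 by limma). This probe was printed in 10 spots, and on sham 3 they ranged from 127 to 144.2, so that none reached the lowest spot of any other array, 155.6. The low value of sham 3 was therefore shared by all spots of that array. Without sham 3 the log2 difference was -0.34, with an adjusted p of 0.1043.

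Ece1, the endothelin-converting enzyme that releases the active peptide, had processed intensities of 241.2, 222.6 and 225.2 in sham and 305.4, 338.3 and 299.7 after suspension. All 3 tail-suspended hearts were above the sham hearts. The log2 difference was 0.24 (SE 0.09, 95% interval 0.02 to 0.46) and the adjusted p by limma was 0.1037, so Ece1 did not pass after adjustment over all probes.

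Ednra encodes the ETA receptor, which couples to Gq and contracts smooth muscle. Its processed intensity was 3286.5, 3399.3 and 2561.8 in the 3 sham hearts and 6642.1, 6059.2 and 8704.5 in the tail-suspended hearts. The dimmest tail-suspension array was well above the brightest sham array. The log2 level rose from 3.28 ± 0.17 to 4.28 ± 0.26, a difference of 0.99 (SE 0.16, 95% interval 0.61 to 1.37, adjusted p = 0.01114 by limma). This is 1.99-fold higher after suspension. Leaving out each array in turn kept the log2 difference between 0.86 and 1.13 and the adjusted p between 0.009227 and 0.03865. With slide row as a block the log2 difference was 1.00 with an adjusted p of 0.1103 by limma. Tail-suspension 2 and 3 were alone in their row, so this difference rests on tail-suspension 1 against the 3 sham arrays. It is the same comparison as within the row that held both groups, where the log2 difference was also 1.00.

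Ednrb encodes the ETB receptor. Its brighter probe read intensities of 249.1, 268.5 and 319.2 in sham and 293.2, 225.2 and 355.7 after suspension. Its dimmer probe read 118.0, 101.8 and 138.4 in sham and 111.8, 86.4 and 129.1 after suspension. On both probes tail-suspension 2 was the lowest array and the groups overlapped. The log2 differences were -0.17 (SE 0.20, 95% interval -0.65 to 0.32, adjusted p = 0.5836 by limma) for the brighter and -0.35 (SE 0.20, adjusted p = 0.2455) for the dimmer probe. The log2 difference of Ednra exceeded that of Ednrb by 1.16, and this gap had p = 0.1 in a two-sided exact permutation test of the 6 arrays, the smallest p that 3 against 3 allows.

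Genes of smooth muscle and pericytes, where ETA receptors act, were read beside Ednra. Of 10 markers 0 were higher and 2 lower, Smtn (log2 difference -0.56) and Kcnj8 (-0.56). Over all tested genes, 10.6% were higher and 10.5% lower. Cnn1, Myh11, Tagln, Acta2 and Notch3 had log2 differences of 0.64, 0.51, 0.36, 0.19 and 0.10. Cspg4, Pdgfrb and Abcc9 went the other way, at -0.12, -0.13 and -0.14. These genes did not pass, although the groups of Myh11 did not overlap. The median over the 10 markers was -0.01. The summed level of all 10 markers, in units of the 75th percentile, was 165.3 to 197.2 in sham and 141.1 to 182.2 after suspension, with overlap and with none of the markers below background. Smtn made up 36% to 49.6% of it, and the other 9 markers summed to 83.33 to 105.6 in sham and 89.56 to 116.5 after suspension. Of 7 fibroblast markers 0 passed in either direction. Their summed level was 263.9 to 283 in sham and 273.3 to 342.2 after suspension, with overlap, and the bright Dcn probe made up 76.1% to 90.4% of it. Dcn had a log2 difference of 0.34. The other 6 fibroblast markers summed to 54.15 to 64.98 in sham and 26.17 to 52.69 after suspension, without overlap. Sums without the brightest marker, here and for other cell types, were added after the values were seen. Of 8 cardiomyocyte markers Actc1 alone was lower (-0.33). The part of cell amounts in the Ednra value was not tested.

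**Figure D2:**
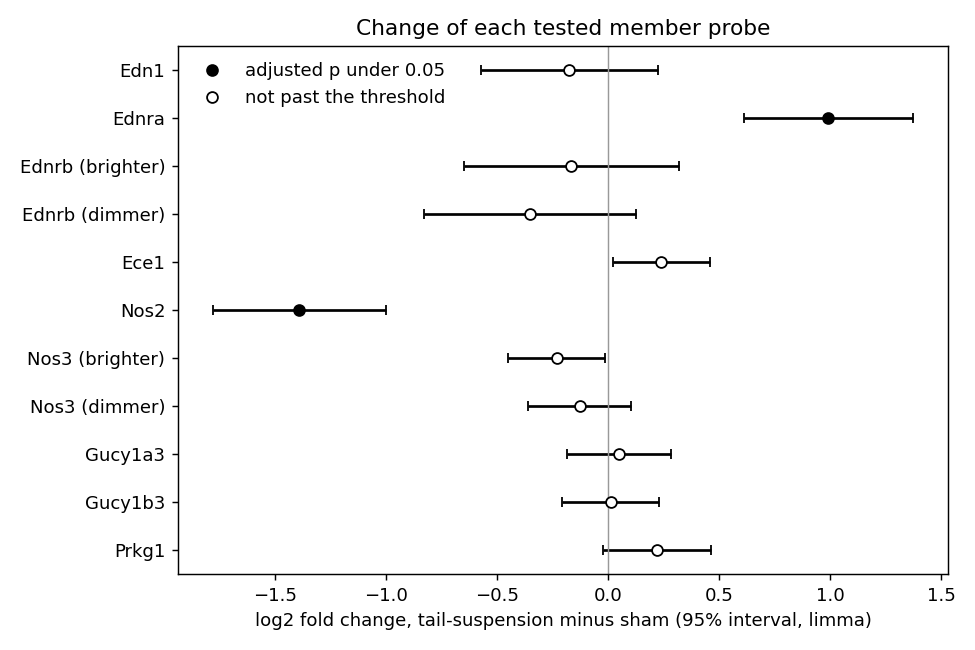
Difference of the log2 level, tail-suspension minus sham, for the 11 tested member probes, with 95% intervals from limma and filled points for an adjusted p under 0.05. Ednra at 0.99 and Nos2 at -1.39 are filled, and the other 9 probes lie between -0.35 and 0.24.

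Nos1, the neuronal synthase also found in heart muscle cells, had 1 probe that was not well above background on any of the 6 arrays. Its intensity was 3.1 to 4.7, so it was not tested.

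Nos2 encodes the inducible synthase, best known from activated macrophages and inflamed tissue. Its probe, printed in 2 spots, read mean intensities of 880.0, 904.3 and 1047.3 in sham and 373.2, 527.0 and 367.2 after suspension. Every tail-suspended heart lay below every sham heart, and tail-suspension 2 was nearest to them. The log2 level fell from 1.58 ± 0.19 to 0.19 ± 0.26, a difference of -1.39 (SE 0.16, 95% interval -1.78 to -1.0, adjusted p = 0.004606 by limma). This is 2.62-fold lower after suspension. The spots of each array differed little, with a coefficient of variation of 0.568% to 7.27%. Leaving out each array in turn gave log2 differences from -1.53 to -1.27 and adjusted p-values from 0.004381 to 0.02332. With slide row as a block the log2 difference was -1.45 with an adjusted p of 0.05675 by limma. As for Ednra, this difference rests on tail-suspension 1 against the sham arrays. Within the row that held both groups it was therefore also -1.45.

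Leukocyte markers were read beside Nos2, and 0 were lower, against 10.5% of all tested genes. Of 7 tested macrophage markers, Cd163 was higher, and their summed level was 66.47 to 72.92 in sham and 68.26 to 76.04 after suspension. Itgam made up 37% to 60.3% of that sum. The other 6 summed to 26.94 to 35.59 in sham and 30.22 to 46.58 after suspension, with overlap. Of 6 tested neutrophil markers 4 were higher, S100a8, S100a9, Retnlg and Ltf, beside 10.6% of all tested genes. In sham hearts Retnlg, Ltf and Cd163 gave no signal well above background. They were tested only through the suspended group, where they were high, so a lower call was hardly possible for them. S100a8 and S100a9 were well above background in both groups. S100a9, a calgranulin, had intensities of 229.3, 195.6 and 135.8 in sham against 12702, 2291 and 4793.2 after suspension, opposite to Nos2. The summed level of the neutrophil markers was 143.2 to 171 in sham and 207 to 236.5 after suspension, of which the bright Csf3r probe made up 78.4% to 99.6%. The other 5, Retnlg and Ltf among them, summed to 0.6847 to 1.083 in sham and 8.129 to 51.16 after suspension. The part of these cells in the Nos2 value was not tested.

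Nos3 encodes the endothelial synthase. Its brighter probe read intensities of 5659.8, 5795.3 and 6165.4 in sham and 5385.5, 5963.7 and 6054.0 after suspension. The intensities overlapped, and the groups separated on the log2 scale relative to each array's percentile, at 4.22 ± 0.12 in sham and 3.99 ± 0.02 after suspension. The log2 difference was -0.23 (SE 0.09, 95% interval -0.45 to -0.01, adjusted p = 0.1168 by limma). The dimmer probe, printed in 10 spots, gave -0.13 (SE 0.10, adjusted p = 0.3807). The coefficient of variation of its spots on 1 array, a technical spread, was 1.96% to 3.31%. Neither probe passed the threshold. The log2 difference of Nos2 lay 1.16 below that of Nos3 (p = 0.1, two-sided exact permutation test, the smallest possible).

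Endothelial genes were mixed beside Nos3. Of 12 markers, 5 were lower (Cldn5, Kdr, Emcn, Tie1 and Egfl7) and 1, Vwf, was higher by 0.99 on the log2 scale. Over all tested genes, 10.5% were lower and 10.6% higher. Cldn5, of the tight junctions, had the strongest fall at -0.56. Their summed level was 217 to 233.6 in sham and 194.3 to 215.3 after suspension, without overlap, but 44.8% to 51.2% of it came from the Egfl7 probe. The other 11 markers summed to 105.8 to 114.8 in sham and 107.2 to 118.4 after suspension, with overlap. The part of endothelial cell amount in the Nos3 values was not tested.

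**Figure D3:**
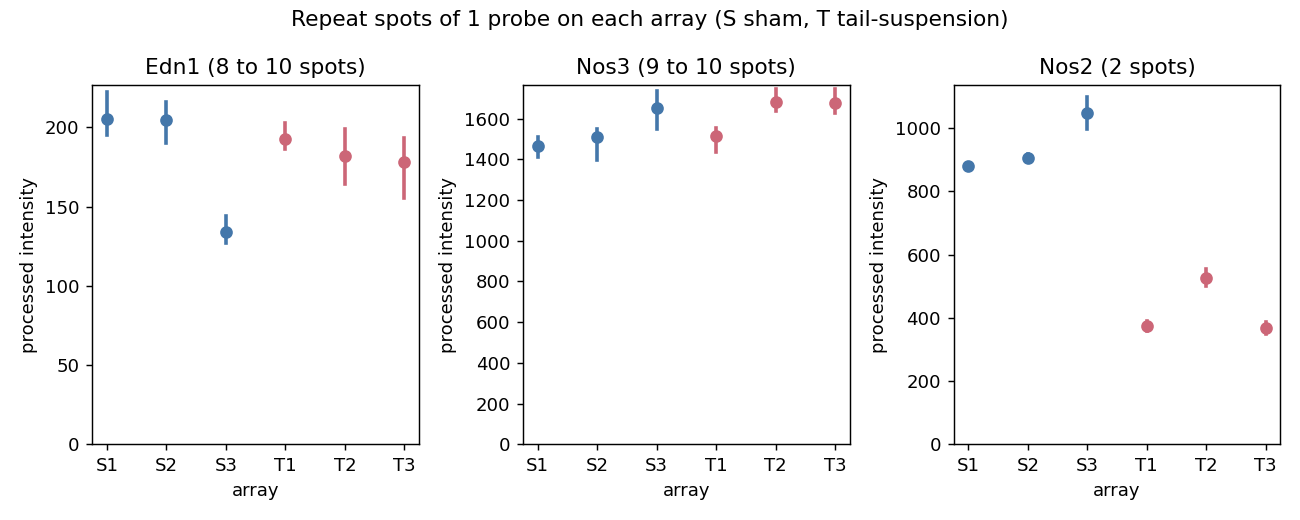
Processed intensity of the repeat spots of the Edn1 probe, the dimmer Nos3 probe and the Nos2 probe on each array, with points for the median and lines from the lowest to the highest spot; S1 to S3 are sham and T1 to T3 tail-suspension. All Edn1 spots on S3 lie below those of the other arrays, and the Nos2 spots of the groups do not meet.

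Gucy1a3 and Gucy1b3 encode the alpha and beta subunits that pair to form soluble guanylate cyclase, the nitric oxide receptor. RefSeq now names them Gucy1a1 and Gucy1b1 and places them as neighbours on chromosome 3 with 0 genes between. Gucy1a3 had intensities of 921.8, 1079.5 and 1007.6 in sham and 1166.4, 1223.7 and 1207.6 after suspension. Gucy1b3 had intensities of 929.3, 1031.5 and 948.8 in sham and 1119.6, 1168.8 and 1107.2 after suspension. Raw brightness was higher in all 3 tail-suspended hearts for both genes, but so was the percentile of those arrays, and the relative levels overlapped. The log2 differences were 0.05 (SE 0.10, 95% interval -0.19 to 0.28, adjusted p = 0.7413 by limma) for Gucy1a3 and 0.01 (SE 0.09, 95% interval -0.20 to 0.23, adjusted p = 0.9296) for Gucy1b3. The subunits differed from each other in this change by 0.04 (p = 0.5, two-sided exact permutation test).

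Prkg1, the cGMP-dependent kinase of smooth muscle and heart, had intensities of 262.2, 279.2 and 277.6 in sham and 381.0, 369.5 and 354.9 after suspension. All tail-suspended hearts were above the sham hearts. The log2 difference was 0.22 (SE 0.10, 95% interval -0.02 to 0.47, adjusted p = 0.1621 by limma) and did not pass the threshold.

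A wider list of the pathway held 79 genes, of which 67 were tested. Of these, 5 were higher, 9 were lower and 53 did not pass, which is 20.9% called beside 21.2% of all tested genes. With slide row as a block 0 were higher and 1, Ddah1 (adjusted p = 0.0148 by limma), was lower. Over 20 alternative settings the called genes kept their directions. Ddah1 passed in 20, Ass1, Asl, Pde5a and Ppp1r12b in 18, Hspb6 in 13, and the other 8, Vasp with 9 and Itpr1 with 11 among them, in 9 to 12. The calls fell on arginine handling, tetrahydrobiopterin synthesis, a regulator of the synthases, regulators of Gq, single phosphodiesterases and substrates of the kinase.

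Among the other endothelin ligands and peptidases, Edn2, Edn3, Ecel1 and Kel were not well above background on any array. Of the 2 tested, Ece2, a further converting enzyme, differed by -0.08 and 0 passed. Among 14 genes of Gq and its regulators 1 was higher and 1 lower, or 14.3% beside 21.2% of all tested genes. Plcb4, a phospholipase C beta, was higher by 0.38 (SE 0.09, adjusted p = 0.02875 by limma), and 1 of its 4 probes did not pass. Rgs4, which shortens Gq signals, was lower: intensities of 474.1, 576.3 and 526.8 in sham fell to 243.3, 446.5 and 256.7 after suspension, a log2 difference of -1.0 (SE 0.22, adjusted p = 0.02743). Rgs2, another brake on Gq that cGMP-dependent kinase acts on, is named after its values were seen. It had intensities of 8273, 7615.1 and 8353.1 in sham and 11110, 29201 and 27123 after suspension. Its groups did not overlap, but tail-suspension 1 stood apart from the other 2 suspended hearts, and the log2 difference of 1.14 (SE 0.32) had an adjusted p of 0.05042.

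Of 11 tested regulators of the synthases, 0 were higher and 1 was lower, beside 10.6% and 10.5% of all tested genes. It was Dynll1, a dynein light chain that binds neuronal synthase, at a log2 difference of -0.49 (SE 0.11, adjusted p = 0.02516 by limma). The other 10, caveolins, Akt1 and Hsp90aa1 among them, did not pass.

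Of 6 tested genes of arginine handling, 2 were higher and 1 was lower, or 50% beside 21.2% of all tested genes. Ass1 and Asl, the enzymes that rebuild arginine from citrulline, were both higher in all tail-suspended hearts. Ass1 had intensities of 319.3, 389.9 and 354.3 in sham and 690.4, 734.9 and 731.8 after suspension, a log2 difference of 0.81 (SE 0.10, adjusted p = 0.006042 by limma), and its second probe gave 1.13. Asl had 229.0, 221.0 and 204.9 in sham and 448.0, 435.6 and 557.9 after suspension, a log2 difference of 0.92 (SE 0.11, adjusted p = 0.005095). Ddah1, which breaks down the synthase inhibitor asymmetric dimethylarginine, moved the other way. Its intensities were 131.8, 111.4 and 115.7 in sham and 37.2, 46.5 and 42.1 after suspension, a log2 difference of -1.73 (SE 0.10, adjusted p = 0.001314), and its second probe gave -1.50. This passed under each of the 20 alternative settings run, although a different background correction (normexp) reduced it to -1.01. Ddah2, its paralogue, differed by -0.09 (adjusted p = 0.511). The arginases Arg1 and Arg2 were not well above background on any array.

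Tetrahydrobiopterin, the cofactor without which the synthases make superoxide, showed 2 calls among 7 genes, or 28.6% beside 21.2% of all tested genes. Gch1, the first enzyme of its synthesis, was lower at -0.53 on the log2 scale (SE 0.13, adjusted p = 0.03148 by limma) and -0.41 on its second probe. Gchfr, the regulatory protein that inhibits that enzyme, was higher by 0.48 (SE 0.13, adjusted p = 0.04279). Gch1 passed in 10 and Gchfr in 9 of the 20 alternatives.

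Beyond the 2 member subunits, 4 guanylate cyclase genes were tested: the soluble cyclase genes Gucy1a2 and Gucy1b2, and Npr1 and Npr2. Of these 0 passed, beside 21.2% of all tested genes, and Npr2, the receptor of C-type natriuretic peptide, differed by -0.09. Among 12 phosphodiesterases and cyclic nucleotide carriers 1 was higher and 1 lower, or 16.7% beside 21.2% of all tested genes. Pde5a, the cGMP-specific enzyme that sildenafil blocks, was higher. It had intensities of 1676.4, 1768.2 and 1342.7 in sham and 2766.8, 3588.2 and 3326.5 after suspension, a log2 difference of 0.81 (SE 0.12, adjusted p = 0.008238 by limma). Pde10a was lower at -0.66 (SE 0.15, adjusted p = 0.02649). The other 10 did not pass.

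Of 11 tested cGMP kinase substrates and partners, 0 were higher and 4 were lower, beside 10.6% higher and 10.5% lower of all tested genes. With slide row as a block, these 4 did not pass (adjusted p 0.1093 to 0.2879 by limma). Hspb6, a small heat shock protein phosphorylated in relaxing muscle, had intensities of 99535, 108560 and 91868 in sham and 63821, 84288 and 56129 after suspension, a log2 difference of -0.78 (SE 0.16, adjusted p = 0.01995 by limma). Ppp1r12b, a targeting subunit of myosin phosphatase, differed by -0.62 (adjusted p = 0.0116), and its second probe, at -0.30, did not pass. Vasp, an actin regulator and classic kinase substrate, differed by -0.43 (adjusted p = 0.0351), and Itpr1, a calcium release channel, by -0.38 (adjusted p = 0.02883). Prkg2, the second kinase gene, gave 0.28 (adjusted p = 0.1462).

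**Figure D4:**
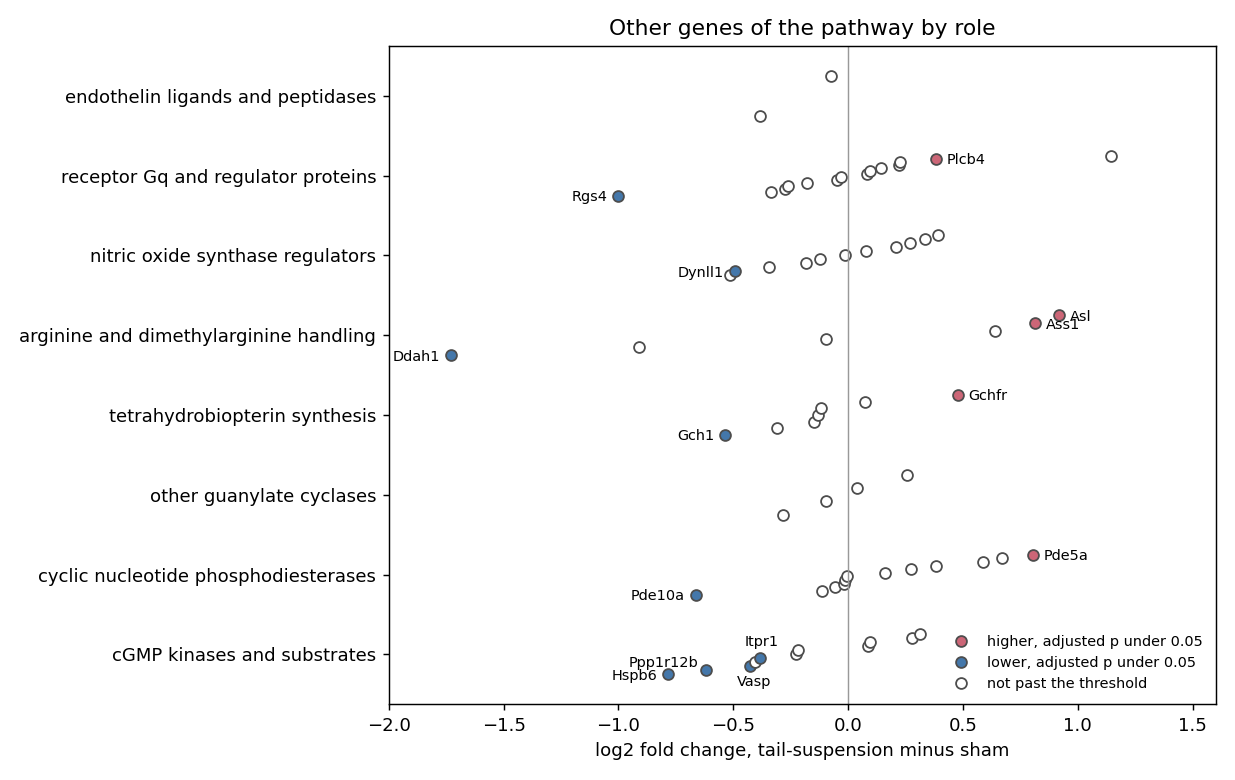
Difference of the log2 level, tail-suspension minus sham, for the 67 tested genes of the wider list, 1 point per gene in 8 roles, spread vertically only for legibility. Filled red points (5) were higher and filled blue points (9) lower at an adjusted p under 0.05, with Ddah1 at -1.73 farthest to the left; the open point at 1.14 is Rgs2.

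The genes whose log2 level over the 6 arrays was most like a member's were described for 3 members, among 17119 other genes. For Edn1 they were Scmh1 and Zmat5 (Pearson r of 0.9959 and 0.9921), for Nos3 they were 2010317E24Rik and Cmtm3 (0.9922 and 0.9915), and for Prkg1 they were Cntf and Athl1 (0.9942 and 0.9922). With 6 arrays from 1 slide in 2 groups, 40 to 91 of the 17119 genes reached an r above 0.95 for each of these members. The named genes were picked as the highest of them, and their likeness was not tested.

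The 250 bases upstream of the start of 8 members (13 starts in RefSeq on GRCm38.p6) were searched on both strands for 5 motifs. They were TATAAA (the TATA box), TGANTCA (the AP-1 site), CACGTG (an E-box), the hypoxia response core ACGTG, which each E-box also holds, and part of the glucocorticoid response element, AGAACA. In this order they were found in 12.4%, 6.75%, 6.02%, 16.6% and 16.1% of the 32851 promoters of the table. Of the 13 windows 9 held none of them, the window of Ednra included. The share of all promoters holding none of the motifs was not counted. Nos2 and Nos3 had no window in the table and were not searched.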

How the data were processed

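Total RNA of 6 hearts was labelled with Cy3 and hybridised by the authors to 1-colour Agilent arrays, scanned, and read with Agilent Feature Extraction 10.7.1.1 (submitters' processing notes). The deposited scanner files hold a processed intensity per spot, background-subtracted. The authors also deposited a table of log2 values, used as an alternative. Here log2 intensity minus the 75th percentile of each array was used, without control and outlier spots (146 to 212 per array), with spots of a probe averaged. A probe was tested when well above background on all 3 arrays of at least 1 group, in at least 50% of its spots on each, and the brightest tested probe stood for its gene. Groups came from the sample labels. Tests used limma 3.58.1 in R 4.3.3 with no covariate, an adjusted threshold of 0.05, and exact permutation tests for differences between genes. Scripts were tested on simulated data.

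The members and gene lists were chosen with earlier results of these data known, and 1 gene of the wider list is not reported here. Named genes were all members, up to 3 called genes per role without overlap of the groups (otherwise the brightest), the strongest called marker per cell type, and the most similar genes of Edn1, Nos3 and Prkg1. The other pathway and marker genes given by name, Itpr1, Rgs2 and the remaining markers among them, were named after their values were seen. The labels call the 3 hearts of a group replicates from separate mice. Replicate numbers were not treated as pairs. Deviations of same-numbered arrays from their group means correlated at -0.02, -0.0176 and 0.0495. With 3 arrays per group, this cannot settle whether same-numbered hearts shared handling.

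Alternatives were another background correction, normalization, filter, spot handling or summary of probes, variance settings, the methods' t-test, blocks by replicate and slide row, a minimum change of 2-fold, and leaving out each array.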

Additional observations from a re-analysis of the deposited data

How the results depend on the processing

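Over 20 alternatives Ednra kept its direction with a log2 difference of 0.86 to 1.13 (adjusted p 0.001309 to 0.1103) and Nos2 with -1.53 to -1.21 (adjusted p 0.0002176 to 0.05675). Slide row as a block left 0 members higher, 0 lower, and 0 pathway genes higher and 1 lower, with Ednra at 1.00, Nos2 at -1.45 and Edn1 turned to 0.0021. Over all genes the slide-row block left 209 higher and 117 lower. Within the row that held both groups, Ednra was at 1.00, Nos2 at -1.45 and Edn1 at 0.0021. These equal the slide-row values by construction, because both differences rest on tail-suspension 1 against the sham arrays. Such fits have fewer arrays or degrees of freedom, and the lone suspended array within the row is assumed to vary like the sham arrays. With the replicate block, where samples were matched by number alone, the members' calls stayed at 1 higher and 1 lower and 5 pathway genes were lower. A 2-fold minimum left 0 members and 0 pathway genes higher and 2 pathway genes lower. An adjusted t-test on the same values left 0 members higher, Ednra at 0.99 (adjusted p 0.05158 in this test, over all 28032 probes) and 3 pathway genes lower. Pathway genes higher came to 10 with normexp, 11 with trended robust variances and 13 with array weights, and 3 were higher and 2 lower with no filter on dim probes. Leaving out each array kept 1 member higher and 1 lower, and gave 3 to 7 pathway genes higher and 3 to 8 lower, with 3 higher without sham 1, sham 2 or tail-suspension 3, and 3 lower without sham 1, sham 2, tail-suspension 1 or tail-suspension 3. Leaving out each array gave -0.2987 to 0.0327 for Ednrb, -0.0274 to 0.0919 for Gucy1a3 and -0.0348 to 0.0513 for Gucy1b3, with changes of sign: without sham 1, Gucy1a3 to -0.0274 and Gucy1b3 to -0.0348; without tail-suspension 1, Gucy1b3 to -0.0265; without tail-suspension 2, Ednrb to 0.0327. The cause was not tested. Dim probes such as Nos1 were below the arrays' reach.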
